A study of Homo sapiens with 9 samples.

Results

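The APOBEC3 cytidine deaminases are a family of 7 human genes, APOBEC3A, APOBEC3B, APOBEC3C, APOBEC3D, APOBEC3F, APOBEC3G and APOBEC3H, and every one of them had a row among the 23610 genes of the expression table. The rows were taken by gene symbol. The family was chosen by the APOBEC3B values with and without an sgRNA against ETV1, where APOBEC3B was higher with it, so the members' values in that contrast are a description. Of the 7 genes, 4 (APOBEC3B, APOBEC3C, APOBEC3F and APOBEC3G) had a mean of at least 1 FPKM (a fragment count scaled by transcript length and library size), the minimum for the 11348 genes that were tested.

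All libraries came from GIST-T1, an established human line of gastrointestinal stromal tumour, a sarcoma of the gut wall. The study compared 3 groups of 3 polyA RNA libraries each, labelled ETV1 sgRNA, HAND1 sgRNA and, as the control, Luciferase sgRNA. ETV1 is an ETS family transcription factor and HAND1 a basic helix-loop-helix transcription factor. Whether the replicates of a group were grown as separate cultures is not given, so the p-values reflect only how far these libraries vary, and that variation may be technical. They call the sgRNA treatment a knockdown, without naming the effector protein, the guide sequences or the time of harvest.

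APOBEC3 enzymes carry 1 or more zinc-binding deaminase domains and turn cytosine into uracil in single-stranded DNA. They are known for restricting retroviruses, including HIV, and endogenous retroelements. Uracil that they leave in the cell's own DNA can be excised by uracil DNA glycosylase or copied into a mutation, and APOBEC3A and APOBEC3B are the members most often linked to mutations in tumours. Transcription of members is known to be driven by interferon, by NF-kB downstream of protein kinase C and, for APOBEC3B, by release of the DREAM repressor complex of the cell cycle.

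The 7 genes lie head to tail on the plus strand of chromosome 22, between CBX6 and CBX7 (RefSeq, GRCh38.p14). APOBEC3A spans chr22:38957609-38963184, APOBEC3B chr22:38982347-38992779, APOBEC3C chr22:39014257-39020352 and APOBEC3D chr22:39021127-39033277. APOBEC3F spans chr22:39040864-39055972, APOBEC3G chr22:39077005-39087743 and APOBEC3H chr22:39097244-39104067. The expression values were made on hg19 and hold no coordinates.

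The members resemble each other closely enough that short reads of one can match another, and the coding sequence of the zinc-binding site shows this directly. The stretches below run from the histidine to the last cysteine of the site, each within 1 coding exon on the plus strand (GRCh38, GENCODE v29 transcripts). The 4 tested members are shown with APOBEC3A, which is listed at 0. Capitals mark bases that differ from, or have no partner in, the second domain of APOBEC3B.
APOBEC3B domain 2, exon 6, chr22:38991365-38991475: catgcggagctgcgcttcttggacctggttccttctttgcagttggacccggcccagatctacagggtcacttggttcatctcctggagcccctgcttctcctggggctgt
APOBEC3A, exon 4, chr22:38961420-38961530: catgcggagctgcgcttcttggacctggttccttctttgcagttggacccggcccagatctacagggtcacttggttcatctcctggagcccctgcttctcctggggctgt
APOBEC3G domain 2, exon 6, chr22:39086312-39086416: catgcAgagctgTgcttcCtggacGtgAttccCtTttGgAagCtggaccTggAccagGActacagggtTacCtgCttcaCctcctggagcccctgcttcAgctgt
APOBEC3B domain 1, exon 3, chr22:38985833-38985937: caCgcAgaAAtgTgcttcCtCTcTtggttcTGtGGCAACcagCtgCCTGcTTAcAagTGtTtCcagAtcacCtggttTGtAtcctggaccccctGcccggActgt
APOBEC3F domain 1, exon 3, chr22:39044962-39045066: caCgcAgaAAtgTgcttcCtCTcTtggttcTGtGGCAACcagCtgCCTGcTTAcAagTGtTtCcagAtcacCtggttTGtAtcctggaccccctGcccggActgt
APOBEC3C, exon 3, chr22:39017787-39017891: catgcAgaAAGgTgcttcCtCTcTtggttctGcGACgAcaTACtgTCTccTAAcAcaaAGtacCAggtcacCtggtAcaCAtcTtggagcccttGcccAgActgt
APOBEC3F domain 2, exon 6, chr22:39052095-39052199: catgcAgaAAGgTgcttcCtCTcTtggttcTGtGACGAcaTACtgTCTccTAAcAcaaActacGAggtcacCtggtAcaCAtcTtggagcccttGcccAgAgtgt

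The second domain of APOBEC3B and the single domain of APOBEC3A were identical over all 111 bases. The first domains of APOBEC3B and APOBEC3F were identical over 105 bases, as were the second domains of APOBEC3D and APOBEC3F. APOBEC3C differed from that last sequence at 4 of 105 bases. APOBEC3G was further away, with 25 of 111 aligned positions differing from the second domain of APOBEC3B. The 2 domains of APOBEC3B differed from each other at 45 of 113 aligned positions.

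Over whole transcripts the overlap was uneven. Of the 50-base windows of the APOBEC3B transcript, 50.5% also occurred in a transcript of another member, and 36.5% of its 100-base windows did. The share at 50 bases was 24.0% for APOBEC3F, 22.1% for APOBEC3A, 19.1% for APOBEC3G, 15.2% for APOBEC3D, 1.16% for APOBEC3C and 0% for APOBEC3H. Of the APOBEC3D windows, 88.8% occurred in a transcript of some other gene, mostly AL022318.4. The APOBEC3B windows were shared most often with APOBEC3A (495 of 1484). APOBEC3B also shared 120 windows with its antisense transcript APOBEC3B-AS1, which a library without strand information cannot tell apart from it. The levels of APOBEC3A, APOBEC3B, APOBEC3D, APOBEC3F and APOBEC3G are therefore uncertain to the extent that the assignment of shared reads, which is not given in the sources used here, could split them.

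**Figure D1:**
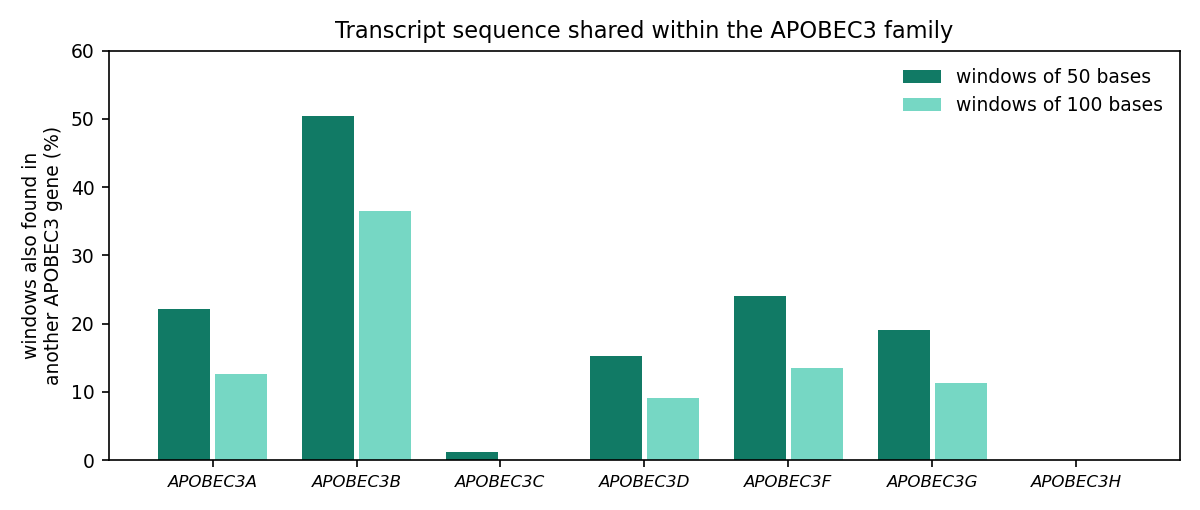
Share of the 50-base and 100-base windows of each APOBEC3 transcript that also occur in a transcript of another member (horizontal axis members, vertical axis percent). APOBEC3B has the highest share at both lengths (50.5% and 36.5%), and APOBEC3C and APOBEC3H are at or close to 0.

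The targeted genes were first compared with their labels. ETV1 was at 11.4 ± 0.571 FPKM (SD, n = 3) with ETV1 sgRNA, against 39.7 ± 2.42 in the control libraries and 40.8 ± 0.960 in the HAND1 sgRNA libraries. The HAND1 level was 38.3 ± 2.25 FPKM under its own sgRNA, 114 ± 1.12 in the control libraries and 132 ± 2.26 under ETV1 sgRNA. Both targets were lowest in the libraries that name them. No read counts are given, and the depth relative to Luciferase sgRNA replicate 1 was between 0.636 and 0.952. Luciferase sgRNA replicate 3 stood apart in its summed FPKM, 538689 against 451286 to 479939 in the other 8 libraries, and values without it are given beside the results for APOBEC3B.

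Of the 17 leukocyte markers, the blood cells in which several APOBEC3 genes are abundant, 16 had a mean below 1 FPKM and 5 (CD2, MS4A1, ITGAM, FCGR3A and HLA-DRA) were listed at 0 in every library. PTPRC, the pan-leukocyte marker CD45, had a mean of 0.0202 FPKM. All 8 markers of GIST and of interstitial cells of Cajal, its lineage of origin, were above 1 FPKM, and all 4 endothelial markers were below it. With HAND1 against Luciferase sgRNA 4 of the 8 were lower at a limma Benjamini-Hochberg adjusted p under 0.05, where 2.93% of all genes were. Among these were the target HAND1 and GPR20, which went from 81.6 to 45.1 FPKM. With ETV1 against Luciferase sgRNA 1 was lower by that rule, the target ETV1, where 0.203% of all genes passed in either direction. Of 5 epithelial markers 3 were below 1 FPKM, the exceptions being the keratins KRT18, at a mean of 225 FPKM, and KRT8, at 3.27.

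APOBEC3B was the most abundant member in every library. Its encoded protein has 2 deaminase domains and resides in the nucleus. With Luciferase sgRNA its level was 8.25, 8.42 and 7.57 FPKM in replicates 1, 2 and 3, a mean of 8.08 ± 0.448 (SD, n = 3). With ETV1 sgRNA it was 11.3, 11.9 and 13.7 FPKM, a mean of 12.3 ± 1.24. With HAND1 sgRNA it was 7.80, 7.23 and 7.95 FPKM, a mean of 7.66 ± 0.380. All 3 ETV1 sgRNA libraries lay above all 6 others, and the ranges of the HAND1 and Luciferase sgRNA libraries overlapped.

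The APOBEC3B mean with ETV1 sgRNA was 1.52 times the Luciferase sgRNA mean, a difference of 0.55 in log2(FPKM + 1) (SE 0.082). Without Luciferase sgRNA replicate 3 the difference was 0.50. In bulk RNA, more cells that express a gene and more of its RNA per cell cannot be told apart. This contrast chose the family, so no test is given for it. Over all 11348 genes tested with limma, 0.203% were called in that contrast at a Benjamini-Hochberg adjusted p under 0.05, and in 12.9% the 2 groups did not overlap (6.88% with ETV1 sgRNA higher).

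Beside this difference, the summed leukocyte markers came to 6.84 to 8.03 FPKM in the ETV1 sgRNA libraries, 4.83 to 6.04 in the control libraries and 5.55 to 8.60 in the HAND1 sgRNA libraries. Most of each sum was CD68, a lysosomal protein abundant in macrophages, at a mean of 4.06 (Luciferase), 4.96 (ETV1) and 6.13 FPKM (HAND1). CD68 was called higher with HAND1 than with Luciferase sgRNA (0.50, limma adjusted p 0.0466), where 3.67% of all genes were called higher. That call was lost under 9 of the 19 alternative settings. The other 16 markers had means below 1 FPKM. The part of these markers in the APOBEC3B difference was not tested.

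APOBEC3B with HAND1 sgRNA did not pass the test against Luciferase sgRNA. The log2 difference was -0.07, with a 95% interval from -0.25 to 0.12 and a limma adjusted p of 0.709, and it was -0.11 without Luciferase sgRNA replicate 3. The contrast uses the Luciferase sgRNA libraries of the contrast that chose the family. Against ETV1 sgRNA, APOBEC3B with HAND1 sgRNA was at 0.624 times the mean, a log2 difference of -0.61 (SE 0.082). That value shares the ETV1 sgRNA libraries with the choice and carries no test. The groups did not overlap, as was the case for 22.4% of all genes tested (11.5% with HAND1 sgRNA lower). Of all genes tested, 4.05% were called.

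**Figure D2:**
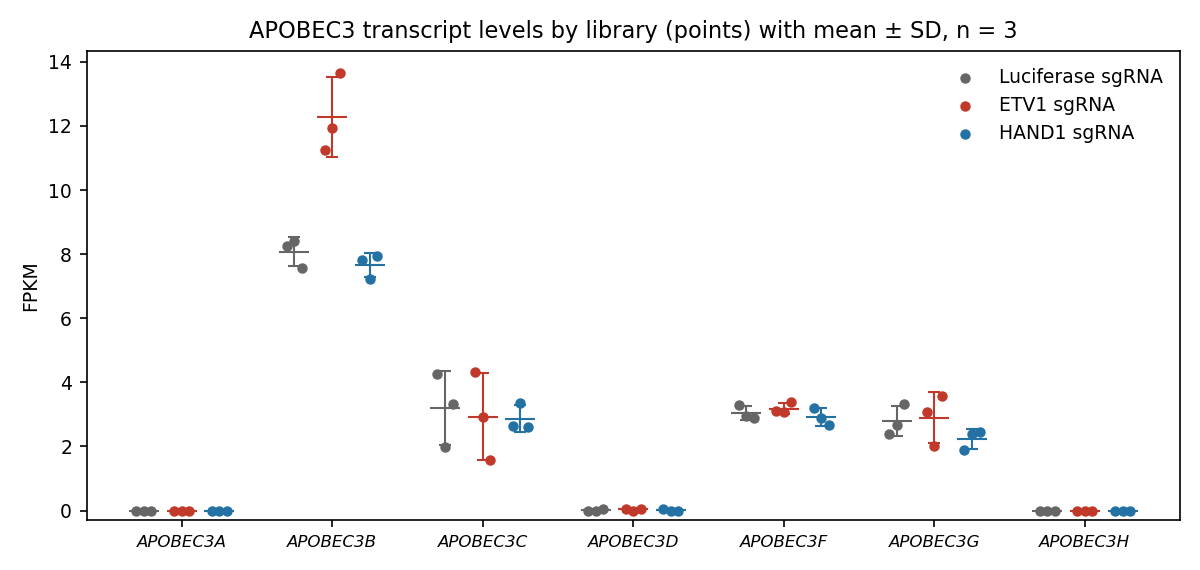
FPKM of the 7 APOBEC3 genes in each of the 9 libraries, by sgRNA group, with points for libraries, horizontal lines for group means and error bars of ± SD (n = 3). The 3 ETV1 sgRNA libraries have 11.3 to 13.7 FPKM of APOBEC3B, above the other 6 at 7.23 to 8.42, while the groups overlap for APOBEC3C, APOBEC3F and APOBEC3G.

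APOBEC3C encodes a single-domain enzyme, and its level varied most between replicates. With Luciferase sgRNA it was 4.27, 1.99 and 3.34 FPKM (3.20 ± 1.15), and with ETV1 sgRNA 4.31, 2.92 and 1.57 FPKM (2.93 ± 1.37). With HAND1 sgRNA it was 2.64, 3.35 and 2.60 FPKM (2.86 ± 0.422). The highest library of a group was 2.14 times the lowest with Luciferase sgRNA and 2.75 times with ETV1 sgRNA, so the 3 groups overlapped throughout. Its within-group SD was 0.397 on the log2 scale. Of the 952 tested genes within 1.3-fold of its mean level, 96.3% had a smaller SD (median 0.156).

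APOBEC3F and APOBEC3G encode enzymes with a pair of deaminase domains that are known to block HIV lacking Vif. APOBEC3F was steady, at 3.30, 2.94 and 2.88 FPKM in the control libraries (3.04 ± 0.231), 3.09, 3.07 and 3.38 under ETV1 sgRNA (3.18 ± 0.170) and 3.21, 2.90 and 2.66 under HAND1 sgRNA (2.92 ± 0.278). Its within-group SD of 0.0823 (log2) was low for its level, with a smaller SD in 7.27% of the 963 tested genes within 1.3-fold of its mean. APOBEC3G was at 2.40, 2.68 and 3.32 FPKM with Luciferase sgRNA (2.80 ± 0.469). It was at 3.08, 2.02 and 3.59 FPKM with ETV1 sgRNA (2.90 ± 0.798) and at 1.87, 2.40 and 2.44 FPKM with HAND1 sgRNA (2.24 ± 0.316). The groups overlapped for both genes.

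With ETV1 sgRNA the signs of the APOBEC3C and APOBEC3G differences depended on single libraries. The log2 differences from Luciferase sgRNA were -0.12 (SE 0.26) for APOBEC3C, 0.05 (SE 0.0945) for APOBEC3F and 0.02 (SE 0.16) for APOBEC3G. With 1 library left out, APOBEC3C ran from -0.37 (without ETV1 sgRNA replicate 1) to 0.16 (without ETV1 sgRNA replicate 3), and it was also above 0 without Luciferase sgRNA replicate 1 (0.06). APOBEC3G ran from -0.11 (without ETV1 sgRNA replicate 3) to 0.20 (without ETV1 sgRNA replicate 2). APOBEC3F ran from 0.02 to 0.10, the last without Luciferase sgRNA replicate 1.

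With HAND1 sgRNA none of the 4 tested members was called against Luciferase sgRNA by limma, and none had an unadjusted p under 0.05. The background was 6.6% of all genes called, 20.3% with an unadjusted p under 0.05 and 25.7% with groups that did not overlap. The log2 difference was -0.09 for APOBEC3C (95% interval -0.67 to 0.49, adjusted p 0.891) and -0.04 for APOBEC3F (-0.25 to 0.17, adjusted p 0.846). It was -0.23 for APOBEC3G (-0.59 to 0.13, adjusted p 0.481), the member with the lowest mean among those tested. Between HAND1 and ETV1 sgRNA the log2 differences were 0.03 for APOBEC3C (SE 0.26), -0.09 for APOBEC3F (SE 0.0945) and -0.25 for APOBEC3G (SE 0.16), given without a test. The APOBEC3G value was -0.42 without ETV1 sgRNA replicate 2 and -0.12 without replicate 3, and its difference from Luciferase sgRNA was -0.13 without Luciferase sgRNA replicate 3 and -0.14 without HAND1 sgRNA replicate 1. The APOBEC3C value between HAND1 and ETV1 sgRNA ran from -0.25 without ETV1 sgRNA replicate 3 to 0.28 without replicate 1.

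**Figure D3:**
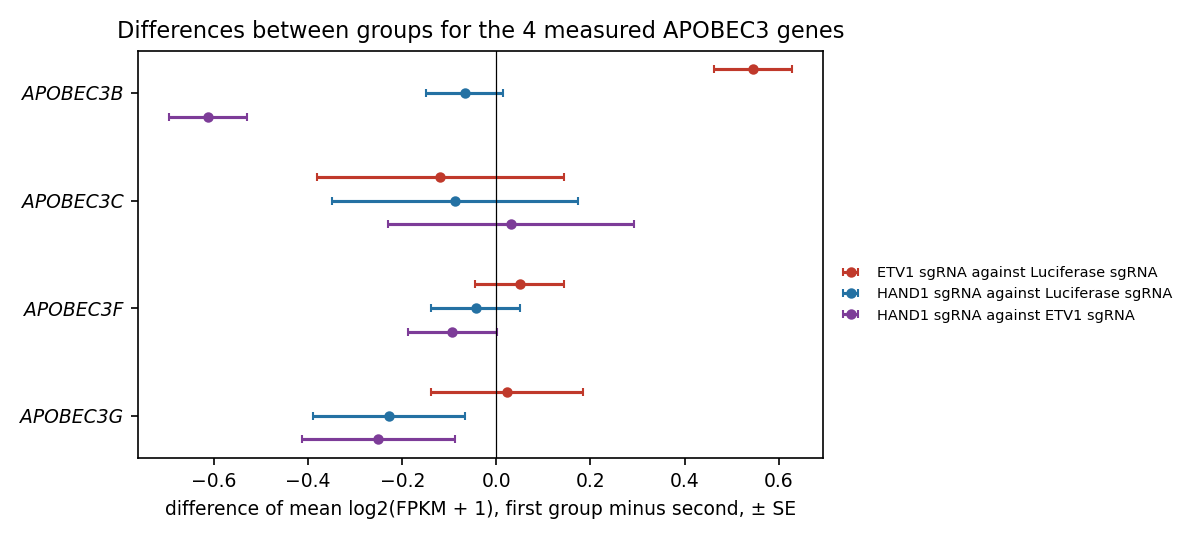
Difference of mean log2(FPKM + 1) for the 4 tested APOBEC3 genes in the 3 comparisons, with bars of ± 1 SE. APOBEC3B stands at 0.55 with ETV1 sgRNA against Luciferase sgRNA and at -0.61 with HAND1 against ETV1 sgRNA, and the other members lie between -0.25 and 0.05.

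The remaining members were at or near the lower limit. APOBEC3A, a single-domain enzyme of myeloid cells, and APOBEC3H, a single-domain enzyme of a separate branch of the family, were listed at 0 in all 9 libraries. A row named APOBEC3A_B, the hybrid gene of a common deletion, was also at 0 throughout. Given the 111 identical bases shown above and the 495 shared windows, a 0 for APOBEC3A is a value of the authors' estimate and not a statement that no read matched it. APOBEC3D, a double-domain enzyme, was at 0 in 5 libraries and at 0.0514 FPKM in Luciferase sgRNA replicate 3, 0.050 and 0.0534 in ETV1 sgRNA replicates 1 and 3, and 0.0453 in HAND1 sgRNA replicate 1. Multiplied by the relative depth of its library, these 4 values became 0.0411, 0.0411, 0.0410 and 0.0409, nearly 1 common value. No fold is given for these 3 genes.

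Because FPKM is scaled to transcript length, the members can be summed and ordered. The family sum was 18.2, 16 and 17.1 FPKM in the control libraries (17.1 ± 1.1), 21.8, 19.9 and 22.2 under ETV1 sgRNA (21.3 ± 1.22) and 15.6, 15.9 and 15.6 under HAND1 sgRNA (15.7 ± 0.165). Without APOBEC3B it was 9.06 ± 1.27, 9.05 ± 1.32 and 8.04 ± 0.534 FPKM. The ETV1 and Luciferase sgRNA means of that remainder thus differed by less than either SD. APOBEC3B made up 47.3% ± 4.54 of the sum in the control libraries, 57.6% ± 5.24 under ETV1 sgRNA and 48.8% ± 2.88 under HAND1 sgRNA. Single libraries ran from 44.1% to 52.5% with Luciferase sgRNA and from 51.6% to 61.4% with ETV1 sgRNA, so the shares overlapped although the levels did not. APOBEC3C took 7.05% to 23.4% of the sum, APOBEC3F 14.2% to 20.6% and APOBEC3G 10.2% to 19.3%. APOBEC3C, APOBEC3F and APOBEC3G overlapped in level with Luciferase and with ETV1 sgRNA, so their order is not resolved there. With HAND1 sgRNA the highest APOBEC3G value, 2.44 FPKM, lay below the lowest of APOBEC3C and APOBEC3F, 2.60 and 2.66 FPKM.

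**Figure D4:**
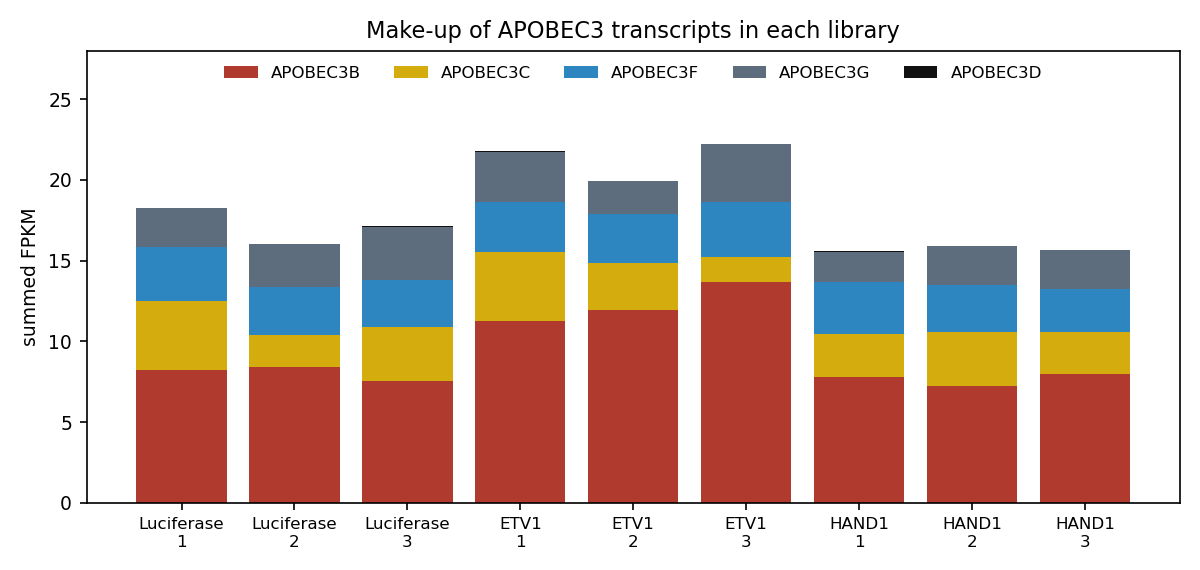
Summed FPKM of the APOBEC3 genes in each of the 9 libraries, stacked by member (vertical axis FPKM, from 0). The APOBEC3B segment is largest in the ETV1 sgRNA libraries, whose sums of 19.9 to 22.2 FPKM lie above the other 6 at 15.6 to 18.2.

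Among all tested genes the family was expressed at a low to moderate level. In the Luciferase sgRNA libraries, 36.2% of tested genes had a lower mean than APOBEC3B. That share was 15.9% for APOBEC3C, 15.1% for APOBEC3F and 13.9% for APOBEC3G. The members did not move as a block across the libraries: Pearson's r of log2(FPKM + 1) over the 9 libraries was 0.534 for APOBEC3B and APOBEC3F, 0.354 for APOBEC3B and APOBEC3G, -0.305 for APOBEC3B and APOBEC3C and between -0.176 and 0.0753 for the pairs without APOBEC3B. These describe 9 points that share their 3 groups and their libraries.

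The genes whose levels were most like APOBEC3B over the 9 libraries were FOS, an AP-1 transcription factor (r = 0.961), ACTA2, smooth muscle actin (0.957), FOXP4, a forkhead transcription factor (0.952), TP53I11 (0.945) and ATP1B1, a sodium pump subunit (0.941), out of 11344 genes. The FOS level was 2.18 ± 0.460 FPKM in the control libraries, 13.4 ± 1.21 under ETV1 sgRNA and 1.73 ± 0.107 under HAND1 sgRNA. FOXP4 was at 17.2 ± 0.208, 20.4 ± 0.231 and 16.6 ± 0.603 FPKM in the same order. As for APOBEC3B, the 3 ETV1 sgRNA libraries lay above the other 6 for both genes. The lowest correlations were those of TSC22D3 (-0.961), a glucocorticoid-induced gene, of ETV1 itself (-0.951) and of RCN1 (-0.926), a calcium-binding protein of the endoplasmic reticulum. TSC22D3 was at 64.6, 57.2 and 65.9 FPKM in the 3 groups. APOBEC3B was chosen for being higher with ETV1 sgRNA, and ETV1 is the target of that sgRNA. The correlation with ETV1, and with genes that differ in the ETV1 sgRNA libraries, therefore follows from that choice and is no separate result.

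The other members were each followed by different genes. For APOBEC3C these were TCF4 (0.935), PHIP (0.918) and RPL36A (0.897), a ribosomal protein gene that ran from 0.925 to 4.01 FPKM. For APOBEC3F they were COPS7B, a COP9 signalosome subunit (0.948), TCF7 (0.927) and LRRC37B (0.922). For APOBEC3G they were MAD2L2, a subunit of the translesion polymerase zeta (0.949), FAM214B (0.947) and ATG10, an autophagy gene (0.938). These genes were ranked on the same libraries, where the groups and the depth are shared, so r is a description.

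**Figure D5:**
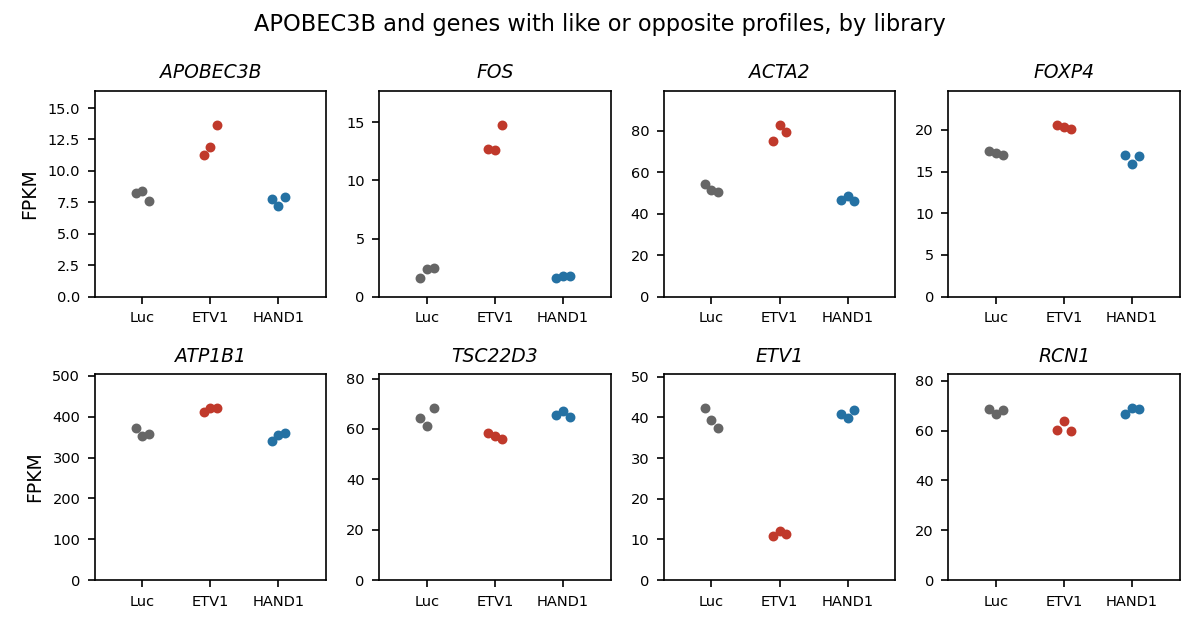
FPKM in each library, by sgRNA group, of APOBEC3B, of FOS, ACTA2, FOXP4 and ATP1B1, which followed it, and of TSC22D3, ETV1 and RCN1, which ran opposite to it (vertical axes from 0, 1 panel a gene, points for libraries). FOS stands at 12.6 to 14.8 FPKM in the ETV1 sgRNA libraries and at 1.61 to 2.50 in the other 6. ETV1, the sgRNA target in the libraries where APOBEC3B is high, is low there by design.

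From 13 lists of genes that act with or control the family, resemble it in function or flank it on chromosome 22, 182 genes were tested. With ETV1 sgRNA limma called none of them against Luciferase sgRNA, where 0.203% of all genes were called, and 16 had an unadjusted p under 0.05, as did 8.2% of all genes. With HAND1 sgRNA 8 were called against Luciferase sgRNA, 4 higher (3.67% of all genes) and 4 lower (2.93%), and 23 had an unadjusted p under 0.05, where 20.3% of all genes did. Between HAND1 and ETV1 sgRNA 6 were called, 2 higher (2.01% of all genes) and 4 lower (2.04%) with HAND1 sgRNA, and 15 had an unadjusted p under 0.05, where 15.4% of all genes did. The median log2 difference over the 182 genes was 0.00, -0.01 and -0.01 in the 3 comparisons, beside -0.01, -0.01 and 0.00 over all genes tested.

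Of 15 NF-kB subunits and inhibitors, TNFAIP3, which encodes the NF-kB inhibitor A20, fell with HAND1 sgRNA from 6.44 ± 0.255 to 2.87 ± 0.135 FPKM (log2 difference -0.94, limma adjusted p 4.17e-05). NFKBIZ, encoding a nuclear NF-kB cofactor, fell from 11.8 to 8.03 FPKM (-0.51, adjusted p 0.00442). BCL3, encoding another nuclear cofactor, rose from 17.1 to 25.7 FPKM (0.56, adjusted p 0.00493). The other 12 tested members of that list were not called. Of all genes tested, 3.67% were called higher and 2.93% lower in that comparison.

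With ETV1 sgRNA TNFAIP3 was at 8.94 ± 0.293 FPKM and NFKBIZ at 15.5 FPKM, neither called against Luciferase sgRNA. The TNFAIP3 difference was 0.42 with a limma adjusted p of 0.0725. It was called under 3 of the 19 alternative settings, namely a pseudocount of 5, no intensity trend and library weights. Between HAND1 and ETV1 sgRNA TNFAIP3 (-1.36, adjusted p 4.25e-06) and NFKBIZ (-0.87, adjusted p 2.31e-04) were lower and BCL3 (0.62, adjusted p 0.00416) was higher with HAND1 sgRNA. There 2.01% of all genes were called higher and 2.04% lower.

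Of 34 listed interferon signalling and response genes 25 were tested, the others having a mean below 1 FPKM. With HAND1 sgRNA 2 of the 25 were called higher, where 3.67% of all genes were, and none was called lower. IFIT1, which encodes a sensor of viral RNA, went from 9.08 to 16.4 FPKM (0.78, limma adjusted p 2.37e-04), and its relative IFIT5 from 4.54 to 6.37 FPKM (0.41, adjusted p 0.0125). With ETV1 sgRNA limma called none of them, and 5 had an unadjusted p under 0.05, where 8.2% of all genes did. The smallest belonged to IRF7, a transcription factor of the interferon response, at 2.34 ± 0.418 FPKM with Luciferase sgRNA and 3.87 ± 0.797 with ETV1 sgRNA (0.54, adjusted p 0.364). IFIT1 was at 10.6 FPKM and IFIT5 at 5.57 FPKM there, and IFIT1 was higher with HAND1 than with ETV1 sgRNA (0.57, adjusted p 0.00249). It was the only 1 of the 25 called in that comparison, where 2.01% of all genes were called higher. With HAND1 sgRNA, 6 of the 25 had an unadjusted p under 0.05 against Luciferase and 2 against ETV1 sgRNA. Of all genes, 20.3% and 15.4% did. Leaving out replicate 2 or 3 of HAND1 sgRNA ended the IFIT5 call (adjusted p 0.0579 and 0.0535). Against Luciferase sgRNA the median log2 difference of the 25 genes was 0.08 with ETV1 and 0.09 with HAND1 sgRNA. Over all genes tested it was -0.01 in both. Between HAND1 and ETV1 sgRNA the median of the 25 was 0.05. These medians carry no test.

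Of 7 tested protein kinase C genes, PRKCQ, which encodes the theta isoform and is itself a marker of GIST, fell with HAND1 sgRNA from 6.84 to 3.67 FPKM (-0.75, limma adjusted p 3.26e-04). It was at 7.12 FPKM with ETV1 sgRNA, and HAND1 sgRNA was lower than that too (-0.80, adjusted p 2.89e-04). The other 6 tested genes of this list were not called. Of all genes, 2.93% were called lower with HAND1 than with Luciferase sgRNA and 2.04% lower than with ETV1 sgRNA. None of 22 DREAM and E2F complex genes and none of 24 cell cycle genes bound by DREAM was called by limma in any comparison. In ETV1 against Luciferase, HAND1 against Luciferase and HAND1 against ETV1 sgRNA, the unadjusted p was under 0.05 for 0, 1 and 2 of the first list. For the second list these counts were 1, 3 and 0. Of all genes tested, 8.2%, 20.3% and 15.4% had such a p in the same order. LIN9, a core DREAM subunit, was at 12.1 ± 0.881 FPKM with Luciferase sgRNA and 13.7 ± 0.942 with ETV1 sgRNA (0.16, adjusted p 0.634). CDT1, a replication licensing factor, was at 46.4 and 52.9 FPKM (0.18, adjusted p 0.381). None of 9 genes of the p53 pathway was called by limma, nor had any of them an unadjusted p under 0.05.

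Of 21 tested uracil and abasic site repair genes, which act on the product of the enzymes, limma called none with ETV1 sgRNA against Luciferase sgRNA. The unadjusted p was under 0.05 for 3 of them, and for 8.2% of all genes tested. NEIL2, a DNA glycosylase, was at 5.80 and 4.53 FPKM with Luciferase and ETV1 sgRNA (-0.29, adjusted p 0.495). None of 16 single-stranded DNA binding and checkpoint genes was called by limma. At an unadjusted p under 0.05 there were 0, 1 and 0 in the 3 comparisons, beside 8.2%, 20.3% and 15.4% of all genes tested.

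Other deaminases were also measured. APOBEC1, the RNA editor of the gut, was listed at 0 in every library, and APOBEC4 was at 0.121 FPKM in 1 library. APOBEC2, the muscle member of the superfamily, was measured at 4.37, 5.06 and 4.83 FPKM in the control libraries, 5.10, 5.70 and 5.25 under ETV1 sgRNA and 4.67, 5.52 and 4.19 under HAND1 sgRNA (adjusted p 0.780 for ETV1 and 0.984 for HAND1 against Luciferase sgRNA). None of the 12 tested RNA and nucleotide deaminases was called by limma. In the 3 comparisons 2, 1 and 1 of them had an unadjusted p under 0.05, beside 8.2%, 20.3% and 15.4% of all genes tested.

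Of 16 tested restriction factors outside the family, SLFN5, a Schlafen family member, fell with HAND1 sgRNA from 5.0 to 2.28 FPKM (-0.88, limma adjusted p 0.00495). The other 15 were not called, where 2.93% of all genes were called lower. The SLFN5 difference between HAND1 and ETV1 sgRNA (-0.77, adjusted p 0.0145) lost its call without ETV1 sgRNA replicate 1 or 2 or HAND1 sgRNA replicate 1 or 2 (adjusted p 0.0552 to 0.0667). In that comparison 2.04% of all genes were called lower. MOV10, an RNA helicase, was at 6.68 and 8.70 FPKM with Luciferase and ETV1 sgRNA (0.33, adjusted p 0.396). The 6 tested cofactors that HIV Vif uses to degrade APOBEC3 proteins were not called by limma. The unadjusted p was under 0.05 for 0, 1 and 0 of them, beside 8.2%, 20.3% and 15.4% of all genes tested. With a pseudocount of 5 the log2 differences of HAND1 against Luciferase sgRNA shrank to -0.54 for TNFAIP3, -0.46 for SLFN5, -0.45 for PRKCQ and 0.25 for IFIT5.

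The genes that flank the cluster did not pass the test in any comparison. Of 10 measured neighbours 8 were tested, and none had an unadjusted p under 0.05 by limma. Of all genes tested, 8.2%, 20.3% and 15.4% had such a p in the 3 comparisons. CBX6, a Polycomb protein gene on the APOBEC3A side, was at 35.3 ± 0.181, 34.7 ± 3.08 and 36.5 ± 4.29 FPKM under Luciferase, ETV1 and HAND1 sgRNA. CBX7, its relative on the APOBEC3H side, was at 1.23, 1.24 and 1.36 FPKM. In the same order SUN2 was at 20.8, 20.6 and 23 FPKM, DNAL4 at 2.46, 2.94 and 2.28, GTPBP1 at 11.1, 10.3 and 10.1, and TAB1 at 7.23, 6.79 and 7.15. RPL3 was at 596, 576 and 555 FPKM and SYNGR1 at 5.82, 4.83 and 4.65. NPTXR (mean 0.172 FPKM) and PDGFB (0.0382) were below the minimum. In 0 of the 8 tested neighbours did all 3 ETV1 sgRNA libraries lie above the 3 Luciferase sgRNA libraries, against 6.88% of all genes tested. With 8 genes, a count of 0 cannot be told from that share. RPL3 with HAND1 sgRNA (549 to 563 FPKM) lay below Luciferase (580 to 617) and ETV1 sgRNA (567 to 589). SUN2 with HAND1 sgRNA (22.3 to 23.9 FPKM) lay above ETV1 sgRNA (19.5 to 21.8). Groups did not overlap in 25.7% of all genes against Luciferase and 22.4% against ETV1 sgRNA.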

How the data were processed

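Per the labels' protocols, polyA RNA of GIST-T1 (RNeasy Plus) was made into 9 NEBNext Ultra II libraries without strand information and sequenced on a NovaSeq6000. STAR, Cufflinks and hg19 are named per the submitters' processing notes. Their versions and the annotation were not given in the sources used here. FPKM per gene symbol were deposited by the authors; these are not counts, so no count model was used. Values below 1e-06 were read as 0 (6473 genes in every library).

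Genes averaging 1 FPKM or more over the 9 libraries were fitted on log2(FPKM + 1), a scale that understates changes of low genes, with limma 3.58.1 in R 4.3.3. The fit used all 9 libraries, the group as its only term and an intensity trend (residual degrees of freedom 6, prior 4.15). Tests, all two-sided, were adjusted by Benjamini-Hochberg over all 11348 genes and called at 0.05. The fitting step was tested on simulated data. Precision is limited by 3 libraries a group, and relative depth was read from ratios of low values.

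The members and lists were chosen with earlier results of these data known. The text names the members, the targets, the 5 genes most and 3 least like APOBEC3B, the 3 most like each other member, up to 3 called members of a list (or 1 uncalled) and the measured neighbours, though not every one, and some are not reported here; CD68, PTPRC, KRT8, KRT18 and the leukocyte markers at 0 were named after their values were seen. Levels of a named gene may be given in every group. Zinc-binding sites were sought in translated GENCODE v29 coding sequences (APPRIS principal transcript) as His-x-Glu, 23 to 28 residues, Pro-Cys, 2 to 4 residues and Cys; the last spacing was widened after a narrower one missed APOBEC3A, and principal transcripts were taken after the longest coding sequence gave an unusual APOBEC3B isoform. The 1.3-fold level range used to compare spreads was set after the values were seen. Windows were compared as exact matches between all GENCODE transcripts. The 19 alternatives were other pseudocounts, filters, scalings, trend, samples, block and weights, and leaving out each library.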

Additional observations from a re-analysis of the deposited data

How the results depend on the processing

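APOBEC3B stayed higher with ETV1 than with Luciferase sgRNA under all 19 alternatives (0.40 to 0.60, log2), the lowest value, 0.40, being that with a pseudocount of 5, and lower with HAND1 than with ETV1 sgRNA (-0.67 to -0.45, the last with a pseudocount of 5). Against Luciferase sgRNA it lay at -0.11 to -0.03 with HAND1 sgRNA (adjusted p 0.437 to 0.911). No member was called there under any alternative. A minimum of 5 FPKM left APOBEC3C, APOBEC3F and APOBEC3G untested, and the other 18 gave values. With HAND1 against Luciferase sgRNA, APOBEC3C turned to 0.12 with library weights and 0.10 without Luciferase sgRNA replicate 1 (-0.31 to 0.10 over single libraries left out), and APOBEC3F to 0.0059 without HAND1 sgRNA replicate 3 and 0.0027 without Luciferase sgRNA replicate 1 (-0.0958 to 0.0059). The cause was not tested.

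The number of genes called with ETV1 against Luciferase sgRNA, 23, became 14 with only the 2 groups compared, 45 with library weights and 11 to 26 with 1 library left out. It was 11 without ETV1 sgRNA replicate 1, 14 without ETV1 replicate 3, 15 without HAND1 replicate 1 or 2, 13 without Luciferase replicate 1 and 14 without Luciferase replicate 2. With HAND1 against Luciferase sgRNA, 749 became 1312 with weights and 433 to 730 with 1 library left out (489, 483 and 433 without HAND1 replicates 1, 2 and 3, and 489 without Luciferase replicate 2). Between HAND1 and ETV1 sgRNA, 460 became 625 with weights and 271 to 583 with 1 library left out (295 without ETV1 replicate 1 or 2, and 271, 291 and 273 without HAND1 replicates 1, 2 and 3). Of the list genes, ETV1 against Luciferase sgRNA gave 1 call (TNFAIP3) with a pseudocount of 5, with no intensity trend and with weights, and 0 to 1 with 1 library left out (IFITM1 without Luciferase replicate 3). HAND1 against Luciferase sgRNA gave 13 with weights and 6 to 10 with 1 library left out.

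The replicate numbers are shared between the groups, but same-numbered libraries correlated in their deviations at only -0.146 to 0.138 (others -0.126 to 0.196), and the best partner had the same number in 7 of 18 cases. No shared effect of the number was seen, so the main fit did not pair the libraries. These correlations cannot show whether same-numbered libraries were prepared together. With the replicate number as a block 16, 632 and 364 genes were called in the 3 comparisons, APOBEC3B differed by 0.55, -0.07 and -0.61, and 0, 8 and 7 list genes were called. Depth is unknown in absolute terms, so nothing is said of members at 0 beyond their listing.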
